A study of Mus musculus with 12 samples.

Results

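Endothelial and blood-brain barrier genes were followed in RNA from the prefrontal cortex of mice, as 10 genes chosen by name: Cldn5, Flt1, Kdr, Tek, Pecam1, Cdh5, Ly6c1, Ly6a, Slco1a4 and Abcb1a. All 10 were found in each of the 3 tables, as 10 of 40438 gene symbols listed at all 3 time points, and all 10 had a mean level of at least 1 FPKM (fragments per kilobase, normalized for library size), as had 13598 genes in all, which are called the compared genes. The mice were 10-week-old males, C57BL/6 in the labels and C57BL/6 J in the methods of the study, without any transgene, and were injected into the peritoneum on 14 consecutive days with either saline or cocaine at 20 mg/kg. The frontal association, prelimbic and orbital cortex of both sides was excised 2 h, 24 h or 7 d after the final one, which gave 6 groups, a saline and a cocaine group for each time. Each group had 2 libraries of poly(A) RNA, made from 5 mice each. The tables hold a single FPKM per group, pooled over its libraries. No spread between libraries and no depth can be read from such values, no test between saline and cocaine was made, and "higher" and "lower" describe the pooled values only.

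Brain capillaries are lined by endothelial cells that are joined by tight junctions and carry little of their cargo by vesicles, so that most solutes pass only through transporters; this lining is the blood-brain barrier. Claudin-5 seals the tight junctions, VE-cadherin and PECAM-1 join neighbouring endothelial cells, the VEGF receptors and the angiopoietin receptor Tie2 take up growth signals, and transporters such as P-glycoprotein pump foreign compounds back to the blood. The barrier depends on signals from neighbouring pericytes, astrocytes and neurons, among them Wnt ligands.

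The promoters of 4 of these genes are shown because they stand for the roles compared here: a junction protein (Cldn5), both VEGF receptors (Flt1 and Kdr) and an efflux pump (Abcb1a). Each sequence covers the 250 bases before a transcript start in RefSeq, on GRCm38.p6, 5′ to 3′ on the strand of the gene. Capitals mark 3 short motifs that were searched on both strands and were picked after the data had been seen. AGGAAG is a core bound by ETS factors, a family active in endothelium. The GC box was searched as GGGCGG. The TATA box was searched as TATAAA.
Cldn5, chr16:18776597-18776846, plus strand: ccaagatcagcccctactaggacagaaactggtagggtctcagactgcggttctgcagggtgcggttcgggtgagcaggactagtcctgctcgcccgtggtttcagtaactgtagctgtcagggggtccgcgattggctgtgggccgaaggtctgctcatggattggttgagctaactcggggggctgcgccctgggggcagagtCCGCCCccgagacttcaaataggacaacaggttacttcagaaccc
Flt1, chr5:147726012-147726261, minus strand: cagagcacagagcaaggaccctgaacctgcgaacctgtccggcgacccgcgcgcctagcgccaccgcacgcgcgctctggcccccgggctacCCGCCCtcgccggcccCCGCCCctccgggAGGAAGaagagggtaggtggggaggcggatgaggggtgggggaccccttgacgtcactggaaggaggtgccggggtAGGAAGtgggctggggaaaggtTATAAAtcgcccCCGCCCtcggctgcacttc
Kdr, chr5:75978456-75978705, minus strand: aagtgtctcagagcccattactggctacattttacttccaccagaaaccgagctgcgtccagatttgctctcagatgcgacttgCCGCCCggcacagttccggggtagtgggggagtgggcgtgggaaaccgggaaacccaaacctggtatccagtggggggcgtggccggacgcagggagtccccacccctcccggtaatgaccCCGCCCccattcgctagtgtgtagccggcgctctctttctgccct
Abcb1a, chr5:8566841-8567090, plus strand: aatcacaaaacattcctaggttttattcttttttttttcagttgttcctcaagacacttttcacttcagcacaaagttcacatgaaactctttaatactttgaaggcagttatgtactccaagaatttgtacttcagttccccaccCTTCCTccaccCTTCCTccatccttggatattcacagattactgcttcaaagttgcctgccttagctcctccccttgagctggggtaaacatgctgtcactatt
RefSeq windows were at hand for 7 of the 10 genes, that is, all but Pecam1, Cdh5 and Ly6a, and the first listed window of each was counted. The marked motifs do not overlap in the windows shown. AGGAAG stood in 3 of the 7 windows (Flt1, Abcb1a and Slco1a4), against 29.5% of 32851 windows of all genes; Ly6c1 has a second start whose window held it 3 times, with an overlap, and was not counted. GGGCGG stood in 3 (Flt1, Kdr and Cldn5), against 32.7%, and TATAAA in 2 (Flt1 and Ly6c1), against 12.4%. The windows differed in base composition: GC made up 70.4% of the Flt1 window, 61.6% of that of Kdr and 59.6% of that of Cldn5, but 40.4% for Abcb1a and 39.2% for Slco1a4, with a median of 52.4% over all windows. The window of Flt1 held 23 CG dinucleotides and that of Abcb1a 0. These letter matches are a description of the sequence and say nothing of the factors bound there.

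The 10 genes spanned more than an order of magnitude in level, and their order was nearly kept across the groups. Ly6c1 (45.2 to 60.6 FPKM over the 6 groups) and Cldn5 (38.0 to 56.3 FPKM) were highest, followed by Ly6a (28.9 to 32.0), Slco1a4 (13.3 to 16.1), Abcb1a (10.6 to 12), Flt1 (9.08 to 13.0) and Pecam1 (6.58 to 8.65). Cdh5 (4.41 to 5.36 FPKM), Tek (3.94 to 4.52) and Kdr (2.81 to 3.43) were lowest. Of the 9 pairs of neighbours in this order, 3 had ranges that overlapped: Ly6c1 with Cldn5, Abcb1a with Flt1, and Cdh5 with Tek. Cldn5 stood above Ly6c1 in both groups at 24 h and in cocaine at 7 d, and below it in the other groups. The genes lie on chromosomes 4 (Tek), 5 (Flt1, Kdr and Abcb1a), 6 (Slco1a4), 8 (Cdh5), 11 (Pecam1), 15 (Ly6c1 and Ly6a) and 16 (Cldn5). Cldn5 is the most compact, with a locus of 1414 bases (18776847 to 18778260, GRCm38) that equals its transcript length and holds no intron, whereas that of Flt1 spans 164408 bases (147561604 to 147726011). All these loci are given as they stand at 2 h. The locus named Abcb1a starts 76757 bases before the RefSeq gene and has the same bounds as the neighbouring Rundc3b. That of Pecam1 runs 35347 bases past the RefSeq gene.

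**Figure D1:**
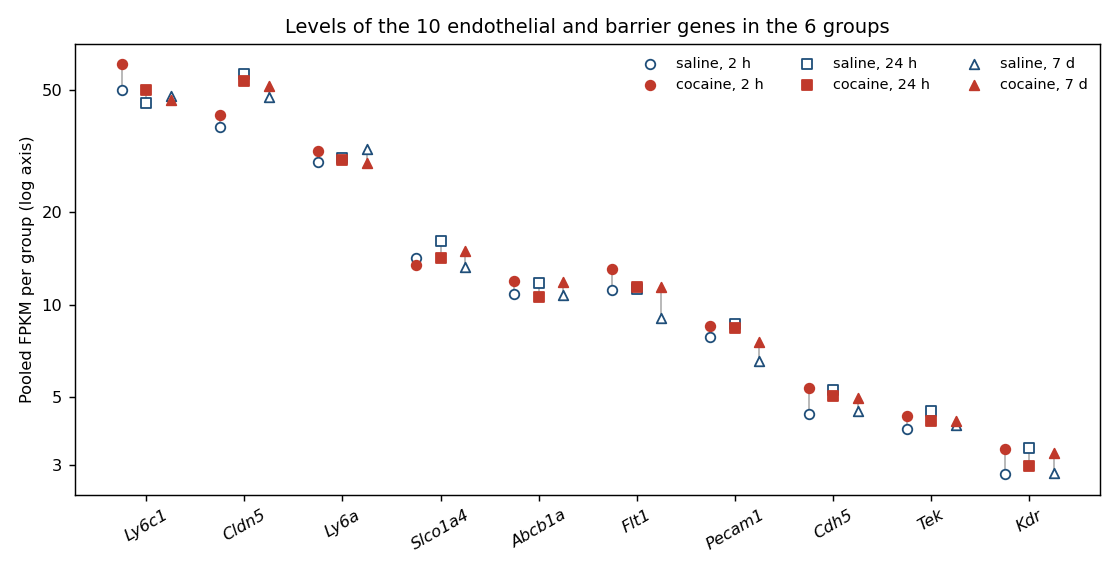
Pooled FPKM (log axis) of each of the 10 genes in the 6 groups, with open symbols for saline and filled symbols for cocaine; circles stand for 2 h, squares for 24 h, triangles for 7 d, and a grey line joins the 2 groups of a time point. The genes run from Ly6c1 at 45.2 to 60.6 FPKM down to Kdr at 2.81 to 3.43 FPKM, and the gaps between genes are mostly wider than those between saline and cocaine.

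At 2 h, 9 of the 10 genes had a higher FPKM in cocaine than in saline, against 56% of all compared genes. The median log2 ratio of cocaine over saline (with a pseudocount of 0.1 added to each FPKM) was 0.13 for the 10 genes and 0.02 for all compared genes. In cocaine 3 genes were higher by at least 1.2-fold (Cdh5, Ly6c1 and Kdr), against 10.5% of all compared genes, and 0 were lower by as much, against 7.17% (17.6% of all compared genes were past the threshold in either direction). These 3 stood between 1.2-fold and 1.21-fold, just past the threshold, and none of them stayed past it when the ratios were centred on the median of all compared genes; Flt1 came next at 1.16-fold. The gene on the other side of 0 was Slco1a4, as were 43% of all compared genes.

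At 24 h the order of saline and cocaine was turned for most of them: 8 of the 10 genes were lower in cocaine, against 46.6% of all compared genes, and 2 were higher, against 52.7%. Their median log2 ratio was -0.07, and that of all compared genes 0.01. No gene of the 10 reached 1.2-fold, which 11.4% of all compared genes did, 6.01% as higher and 5.38% as lower in cocaine.

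At 7 d, 8 of the 10 genes were higher in cocaine, against 47.5% of all compared genes, and 2 were lower, against 51.8%. The median log2 ratio was 0.14, while that of all compared genes was -0.01. Flt1 alone was past 1.2-fold, at 1.26-fold higher in cocaine, which 8.24% of all compared genes were; 0 of the 10 were 1.2-fold lower, against 11.7% (19.9% in either direction). With the median ratio of genes of like transcript length taken out, Flt1 was no longer past the threshold (log2 0.20). Because whole tissue was sequenced, a change in the share of endothelial cells and a change in the RNA of each cell cannot be told apart in any of these ratios.

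**Figure D2:**
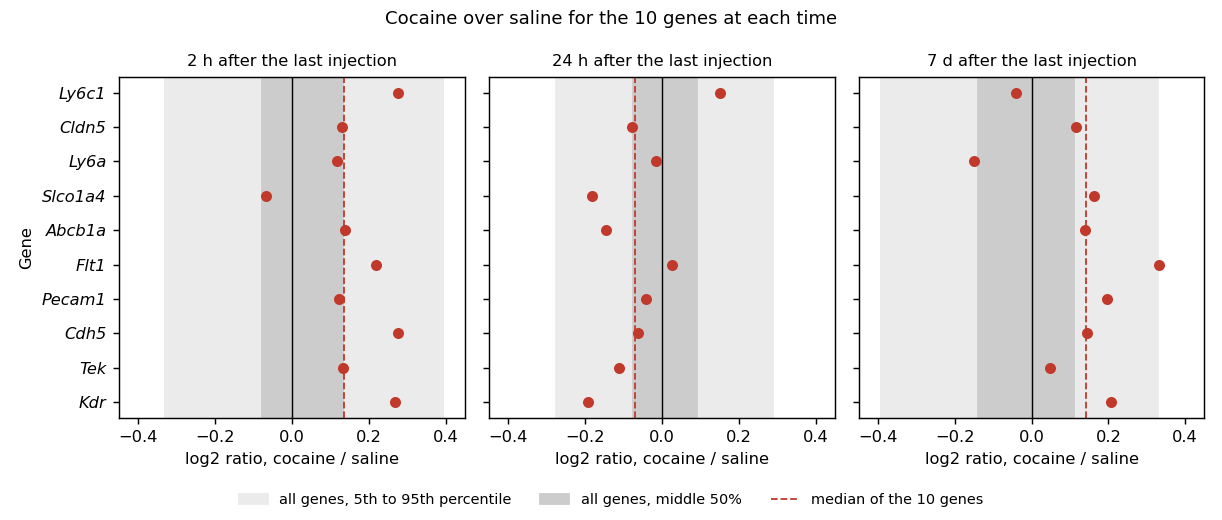
log2 ratio of cocaine over saline (x axis) for each of the 10 genes (y axis) at 2 h, 24 h and 7 d; dark grey covers the middle 50% and light grey the 5th to 95th percentile of all compared genes, and the dashed line is the median of the 10 genes. With FPKM as deposited, the points right of 0 number 9 in the panel for 2 h, 2 in that for 24 h and 8 in that for 7 d. Of all compared genes 56%, 52.7% and 47.5% were right of 0. Rescaling each group to the same total FPKM (not drawn) puts all 10 genes left of 0 at 2 h and 24 h. The median of all compared genes then moves as well, to -1.2 and -3.18.

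These directions hold for the FPKM as deposited and relative to the bulk of genes. When every group was rescaled to the same total FPKM of the compared genes, the median of all compared genes moved to -1.2, -3.18 and 0.12 at 2 h, 24 h and 7 d (log2 scale). All 10 genes were then lower in cocaine at 2 h and 24 h. With the total taken over protein-coding genes only, a choice made after the data had been seen, all 10 were higher in cocaine at 2 h and 7 d and lower at 24 h, and the median of all compared genes stood likewise at 0.42, 0.54 and -0.74 at these times. In each group the 5 genes with the highest FPKM, led by Trbc2, Mir320 or Mir2137, held 42.8% to 93.8% of the total over all compared genes. Relative to the median of all compared genes the median of the 10 genes was 0.11, -0.08 and 0.15 as deposited and 0.11, -0.06 and 0.15 after rescaling to the total over all compared genes. Rescaling changes all genes of a group by the same factor, so this likeness follows from the arithmetic apart from the pseudocount.

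The junction genes shared the sequence of higher, lower and higher FPKM in cocaine at 2 h, 24 h and 7 d. Pairs of values are given as saline against cocaine. Cldn5, the main claudin of the brain endothelium, had 38.0 FPKM in saline against 41.6 in cocaine at 2 h, 56.3 against 53.3 at 24 h, and 47.6 against 51.6 at 7 d. Both of its values at 24 h were above those of the other groups. The 3 saline values, from tables normalized separately, differed by up to 1.48-fold, and saline and cocaine at any time by at most 1.09-fold. Cdh5, which encodes VE-cadherin of the adherens junctions, had 4.41 FPKM in saline against 5.36 in cocaine at 2 h, 5.27 against 5.05 at 24 h, and 4.50 against 4.98 at 7 d. Its log2 ratio of 0.28 at 2 h was at percentile 90.4 of all compared genes, the highest of the 10 genes at that time. Pecam1, an adhesion molecule at the contacts of endothelial cells that blood leukocytes and platelets carry as well, had 7.83 against 8.53 FPKM at 2 h, 8.65 against 8.40 at 24 h, and 6.58 against 7.55 at 7 d. Its lowest value was saline at 7 d, and its log2 ratio there was 0.20 (percentile 85.8).

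Of the receptor genes, Flt1 and Kdr had the highest ratios of the 10 genes at 7 d, and Kdr had the lowest at 24 h. Flt1 encodes VEGFR1, which binds VEGF-A tightly and, in its soluble form, withholds it from the other receptor. It had 11.2 FPKM in saline against 13.0 in cocaine at 2 h, 11.2 against 11.4 at 24 h, and 9.08 against 11.5 at 7 d. As deposited, Flt1 was the only one of the 10 genes with a higher FPKM in cocaine at all 3 times, by a log2 ratio of 0.03 at 24 h. With the length trend taken out that value was -0.01, and Ly6c1 (0.27, 0.17 and 0.18) and Ly6a (0.11, 0.01 and 0.07) were the genes above 0 at 2 h, 24 h and 7 d. For Flt1 the deposited log2 ratio of 0.33 at 7 d lay at percentile 95.2 of all compared genes. Its saline value at 7 d was the lowest of the 3. Across the times, in tables normalized separately, its cocaine values differed by 1.14-fold and its saline values by 1.24-fold. Kdr encodes VEGFR2, the main signalling receptor for VEGF-A, and had 2.81 FPKM in saline against 3.40 in cocaine at 2 h, 3.43 against 2.99 at 24 h, and 2.84 against 3.29 at 7 d. Its log2 ratios were 0.27, -0.19 and 0.21, so that it was near the top of the 10 genes at 2 h and 7 d and the lowest of them at 24 h (percentile 9.32 of all compared genes). Tek encodes Tie2, the angiopoietin receptor, and had 3.94 against 4.33 FPKM at 2 h, 4.52 against 4.18 at 24 h, and 4.05 against 4.19 at 7 d. Its ratios were smaller, at 0.13, -0.11 and 0.05 on the log2 scale.

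The Ly6 genes were the only ones of the 10 with a lower FPKM in cocaine at 7 d as deposited; with the length trend taken out both stood above 0 (0.18 for Ly6c1 and 0.07 for Ly6a). Ly6c1 encodes a small membrane-anchored surface protein that is abundant on brain endothelium and also marks subsets of blood leukocytes. Its level was 50.01 FPKM in saline against 60.6 in cocaine at 2 h, 45.2 against 50.2 at 24 h, and 47.9 against 46.5 at 7 d. It was thus the only one of the 10 genes other than Flt1 that was higher in cocaine at 24 h, by 1.11-fold. Ly6a, which encodes the related surface protein Sca-1, had 29.2 against 31.7 FPKM at 2 h, 29.97 against 29.6 at 24 h, and 32.0 against 28.9 at 7 d. The log2 ratios at 7 d were -0.04 for Ly6c1 and -0.15 for Ly6a. Ly6c2 is close to Ly6c1 in sequence, and since only uniquely mapped reads were kept, reads common to both would be missing from either, so both levels are uncertain. It had 6.66 against 7.71 FPKM at 2 h, 6.85 against 7.56 at 24 h, and 6.96 against 7.44 at 7 d, higher in cocaine at each time.

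The transporter genes differed from each other in direction at 2 h. Slco1a4 encodes Oatp1a4, a carrier of organic anions in the capillary wall. It was the single gene of the 10 that was lower in cocaine at 2 h, with 14.2 FPKM in saline against 13.5 in cocaine; the values were 16.1 against 14.2 at 24 h and 13.3 against 14.9 at 7 d. Abcb1a encodes the P-glycoprotein of the barrier, which returns many drugs to the blood, and had 10.9 against 12 FPKM at 2 h, 11.8 against 10.6 at 24 h, and 10.8 against 11.9 at 7 d. Its values split the groups evenly, with 3 between 11.8 and 12 and 3 between 10.6 and 10.9. The near-identical pump gene Abcb1b was lower in level, at 1.71 to 2.24 FPKM, and had its widest ratio at 7 d (1.71 in saline and 2.24 in cocaine, log2 0.37). Of the relatives of Slco1a4, Slco1a1, Slco1a5 and Slco1a6 had mean levels of 0.04, 0.12 and 0.56 FPKM and took no part in the comparison.

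The saline groups themselves differed by time. For 8 of the 10 genes the highest of the 3 saline values was at 24 h, as it was for 37.3% of all compared genes, the exceptions being Ly6c1 and Ly6a. The highest over the lowest saline value was 1.09-fold to 1.48-fold, with a median of 1.2 against 1.17 over all compared genes. For 5 of the 10 genes it was larger than the ratio of cocaine and saline at any time. No share of all compared genes is given for this rule, so the count cannot be set against them. The 3 tables were normalized separately, so levels at different times are set side by side only. The sequence of higher at 2 h, lower at 24 h and higher at 7 d in cocaine was seen in 6 of the 10 genes (Cldn5, Kdr, Tek, Pecam1, Cdh5 and Abcb1a) and in 13.8% of all compared genes; it was picked out after the values had been seen.

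Averaged over the 10 genes, each centred on its own mean, the log2 FPKM was -0.08 in saline and 0.08 in cocaine at 2 h, 0.08 against 0.01 at 24 h, and -0.10 against 0.02 at 7 d. Over the 6 groups Cdh5 followed the mean of the other 9 genes most closely (Pearson's r 0.98), then Kdr (0.91) and Tek (0.90), whereas Cldn5 (0.14), Ly6c1 (0.06) and Ly6a (-0.14) did not follow it. Outside the 10 genes, those most like their mean were Lix1l (r 0.99), Efs (0.99), Plin3 (0.99), Scrt1 (0.99) and Tcn2 (0.99), taken as the top 5 of all compared genes. These correlations take in differences in level between the times, which come from tables normalized separately. A low r therefore does not mean that the ratios of cocaine over saline differed. With 6 pooled values per gene and 13598 genes such values describe the likeness only.

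Transcript length moved with the ratios at 7 d. In the tables as deposited, over 11457 compared genes with a known protein-coding transcript, Spearman's rho of the log2 ratio with length was 0.472 at 7 d, as against 0.155 at 2 h and 0.0853 at 24 h; it is taken across genes, which are not independent replicates. The shortest of 20 length groups had a median log2 ratio of -0.22 at 7 d and the longest 0.14. Among the 10 genes the 2 shortest, Ly6a (819 nt) and Ly6c1 (840 nt), were the 2 with a lower FPKM in cocaine, and the 2 longest, Flt1 (6895 nt) and Kdr (5924 nt), had the highest ratios (rho 0.721 over 10 genes, as a description). With the median of genes of like length taken out, the log2 ratio at 7 d was 0.18 for Ly6c1 in place of -0.04, 0.07 for Ly6a in place of -0.15, 0.23 for Cldn5 in place of 0.12, and 0.20 for Flt1 in place of 0.33. On that scale 9 of the 10 genes were above 0, all but Tek (-0.02), the median of the 10 was 0.12, and none reached 1.2-fold. The median of all genes is 0 on that scale by construction, so about as many of them lie above 0 as below. The part of length in the deposited ratios was not tested further.

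**Figure D3:**
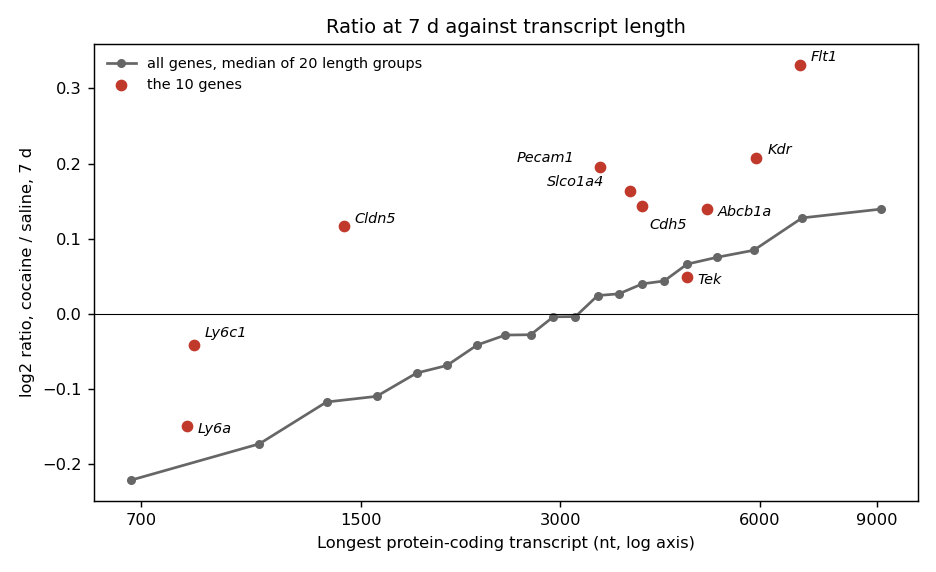
log2 ratio of cocaine over saline at 7 d (y axis) against the length of the longest protein-coding transcript in nt (x axis, log scale); the grey line joins the medians of 20 groups of compared genes ordered by length, and red points are the 10 genes. The grey line climbs from -0.22 to 0.14, and 9 of the 10 genes lie above it, Tek being below. The line joins medians, so compared genes of like length lie about equally above and below it.

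Other genes of the barrier were taken from lists of gene symbols and described with the same threshold. Of 12 compared partners of the tight and adherens junctions, 10, 5 and 10 were higher in cocaine at 2 h, 24 h and 7 d (56%, 52.7% and 47.5% of all compared genes), and the medians were 0.13, -0.01 and 0.06 on the log2 scale. Tjp1, the scaffold ZO-1 under the tight junction, had 11.6 FPKM in saline against 15.0 in cocaine at 2 h (1.28-fold). Ocln, which encodes the tight junction protein occludin, had 3.19 against 4.0 at 7 d (1.25-fold). Among 17 barrier transporters 3 were at least 1.2-fold higher and 2 lower at 2 h (10.5% and 7.17% of all compared genes), 1 higher at 24 h (6.01%), and 4 higher at 7 d (8.24%), with medians of 0.14, -0.06 and 0.12. Mfsd2a, the lipid carrier that holds down vesicle transport in this endothelium, had the largest ratio of the list at 2 h, with 8.99 FPKM in saline against 13.9 in cocaine (1.54-fold). Slc38a5, a carrier of neutral amino acids, had 2.54 against 2.06 FPKM at 2 h, 2.75 against 2.47 at 24 h and 1.77 against 2.86 at 7 d. Abcg2, a further efflux pump, had 8.17 against 9.97 FPKM at 24 h.

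Endothelial transcription factors had the highest median ratio of the endothelial lists at 2 h. All 13 compared genes were higher in cocaine at 2 h (56% of all compared genes) and 6 of them by at least 1.2-fold (10.5%), with a median of 0.23. At 24 h 7 of 13 were higher, near the 52.7% of all compared genes (median 0.01), and at 7 d 11 of 13, against 47.5% (median 0.19). Klf4, a factor induced by blood flow and by many other stimuli, had 2.07 FPKM in saline against 4.23 in cocaine at 2 h (1.99-fold) and 1.81 against 1.85 at 7 d. Fli1, an ETS factor of endothelium and blood cells, had 1.07 against 1.42 FPKM at 7 d. Gata2, a zinc finger factor of the same lineages, had 1.19 against 1.54 at 24 h.

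The remaining endothelial lists are given by their medians and leading genes. Of 10 compared VEGF and angiopoietin genes, medians were 0.09, -0.07 and 0.06; Vegfc, a ligand of the VEGF receptors, was lower in cocaine at 2 h (2.83 and 2.08 FPKM) and 24 h (2.94 and 2.32), and Ptprb, the phosphatase that acts on Tie2 and VE-cadherin, was higher at 7 d (3.19 and 4.29). The 13 Wnt and Norrin genes had medians of 0.14, -0.14 and 0.04, and Fzd4, the Norrin receptor, had 1.58 against 2.00 FPKM at 2 h and 1.25 against 1.72 at 7 d. Fzd6, a further Frizzled receptor, had 3.01 against 2.38 at 24 h. For 22 surface and identity genes of endothelium the medians were 0.08, -0.04 and 0.05. Icam2, an adhesion molecule for leukocytes, had 2.54 against 3.79 FPKM at 2 h (1.47-fold), and Calcrl, a receptor component for adrenomedullin and CGRP, had 1.09 against 1.66 at 7 d. Ctla2a was the lowest ratio of that list at 7 d, with 4.67 and 3.71. The 9 genes of caveolae and transcytosis had medians of 0.10, -0.03 and -0.04. Plvap, which marks leaky fenestrated vessels, was lower in cocaine at 2 h (10.9 and 7.47 FPKM) and at 7 d (5.56 and 4.04), and Ptrf, which coats caveolae, was higher at both (8.08 and 10.5; 6.72 and 9.78). The 10 basement membrane genes had medians of 0.08, -0.07 and 0.15, with Hspg2, the core protein of perlecan, at 1.68 against 2.11 FPKM at 7 d, and Lama5, a laminin chain, at 1.60 against 0.844 at 24 h and 1.49 against 1.16 at 7 d.

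Marker lists of astrocytes, pericytes and meningeal fibroblasts had, on the deposited scale, medians above 0 at 2 h and 7 d and below 0 at 24 h, as the 10 genes had. Against 56%, 52.7% and 47.5% of all compared genes, 11, 0 and 11 of 11 astrocyte genes were higher in cocaine at 2 h, 24 h and 7 d (medians 0.17, -0.14 and 0.29), and their summed FPKM was 698 and 793, 814 and 733, and 682 and 811. Aqp4, the water channel of the endfeet that wrap the capillaries, had 29.4 and 30.2 FPKM, 32.7 and 26.4, and 27.4 and 30.2. Of 11 pericyte genes, 7, 0 and 7 were higher in cocaine, the first count being near the share of all compared genes (medians 0.10, -0.17 and 0.14), with summed levels of 95.9 to 108 FPKM over the groups. Of 10 meningeal fibroblast genes, 9, 1 and 8 were higher (medians 0.12, -0.21 and 0.32; summed levels 106 to 126 FPKM). All 5 compared red cell genes were at least 1.2-fold higher in cocaine at 2 h, against 10.5% of all compared genes. Their summed FPKM at 2 h was 323 in saline and 504 in cocaine. Their medians were 0.64, 0.08 and 0.25 at 2 h, 24 h and 7 d. Hbb-bs, an adult beta-globin, had 113 against 170 FPKM at 2 h, 141 against 149 at 24 h, and 171 against 188 at 7 d. Microglial (0.04, -0.12 and -0.04), oligodendrocyte (-0.10, -0.21 and 0.00) and neuronal lists (0.00, 0.01 and 0.06) gave the medians in parentheses. With the length trend taken out, the 7 d medians were 0.12 for microglia, 0.50 for red cells, 0.28 for astrocytes, 0.10 for pericytes and 0.32 for meningeal fibroblasts. These medians leave out genes without a known transcript length. Hbb-bs was such a gene, so the red cell medians of 0.50 and 0.25 come from different sets of genes. Ttr, the leading gene of the choroid plexus, had 1.90 against 0.461 FPKM at 2 h, 1.80 against 1.1 at 24 h, and 0.284 against 6.54 at 7 d, whereas the other 8 listed choroid genes were each under a mean of 1 FPKM. The part of unequal tissue or cell content in the ratios of the 10 genes was not tested.

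**Figure D4:**
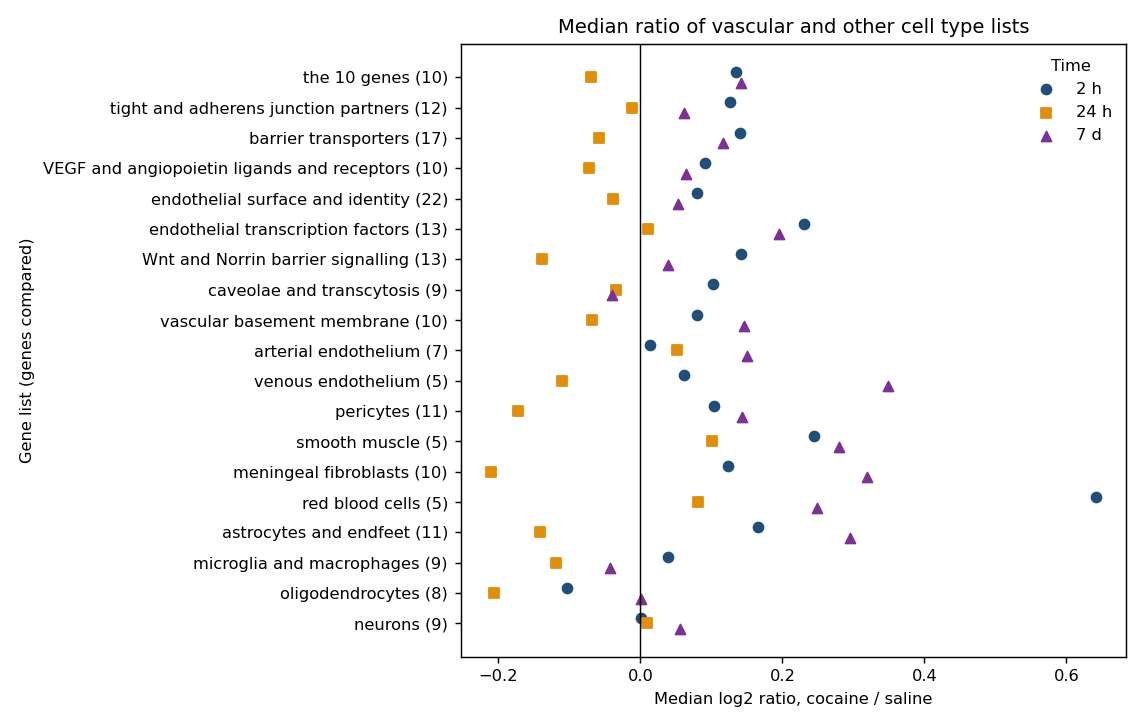
Median log2 ratio of cocaine over saline (x axis) for each gene list (y axis, with the number of compared genes), at 2 h (circles), 24 h (squares) and 7 d (triangles); the choroid plexus list, with 1 compared gene, is left out. On the FPKM as deposited the 10 genes stand at 0.13, -0.07 and 0.14, and the astrocyte, pericyte and meningeal fibroblast lists are likewise right of 0 at 2 h and 7 d and left of it at 24 h; rescaling to the same total moves all lists together.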

How the data were processed

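Prefrontal cortex RNA of 12 libraries in 6 groups was used. The deposited FPKM values are Cuffdiff output, made by the authors with 1 value per group pooled over 2 libraries, in 1 table per time point. Submitters' processing notes name CASAVA 1.8.2, Trimmomatic 0.32, TopHat2 2.0.12, Cufflinks 2.2.1 and GRCm38; the paper's methods name cutadapt and mm9, and the loci match GRCm38. Only uniquely mapped reads were kept. Depth behind each FPKM is unknown from the tables. The tables also hold the authors' fold changes, p values and q values, which were not used. The column names alone do not say which group is saline (their prefix C also stands for cocaine in the sample labels), so this was taken from the headings over the same values in the paper's supplementary tables; every direction rests on it.

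A gene with several loci took the longest, and a locus naming several genes was kept. Ratios were log2 of cocaine over saline FPKM after adding 0.1, which understates changes of low genes; 1.2-fold was the threshold, and genes with a mean of at least 1 FPKM over the 6 groups were compared. The pooled FPKM show no replicate error, so no test was run. Length came from GENCODE vM1 protein-coding transcripts, found for 84.3% of the compared genes. Steps were tested on simulated data, with numpy 2.4.6, pandas 2.3.3 and matplotlib 3.10.9 under Python 3.11.15. Sequences came from RefSeq.

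The 10 genes and all lists were chosen with earlier results of these data known. The text names the 10 genes, their close paralogs, the genes of each list with the largest ratio past 1.2-fold in each direction at each time (a selection of them), the 5 genes most like the mean of the 10, and Ttr, Hbb-bs and Acta2. Aqp4 was added after its values were seen. Of the listed symbols 4 were not found in the tables. The 3 promoter motifs, the 4 promoters shown and 2 further scalings were chosen after the values had been seen. The alternatives were other pseudocounts, filters, thresholds, scalings, locus choices and a length correction.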

Additional observations from a re-analysis of the deposited data

Results flagged for a closer look

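For 3 of the 10 genes a ratio past 1.2-fold at 1 time stood on the other side of 0 at another. The difference between times was not tested, since there is 1 pooled value per group. No share of all compared genes is given for this rule, so the count cannot be set against them. All 3 ratios were at 1.2-fold to 1.21-fold at 2 h, and none stayed past the threshold when centred on the median of all compared genes. Kdr had a log2 ratio of 0.27 at 2 h and -0.19 at 24 h (difference 0.46), Cdh5 0.28 at 2 h and -0.06 at 24 h (0.34), and Ly6c1 0.28 at 2 h and -0.04 at 7 d (0.32). At 2 h and 24 h Kdr had 2.81 and 3.43 FPKM in saline and 3.40 and 2.99 in cocaine, and Cdh5 4.41 and 5.27 in saline and 5.36 and 5.05 in cocaine, in tables that were normalized separately. For Ly6c1 cocaine was 60.6 FPKM at 2 h and 46.5 at 7 d, and saline 50.01 and 47.9. With the median of genes of like length taken out, Ly6c1 stood at 0.27 and 0.18 at 2 h and 7 d on the same side of 0.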

How the results depend on the processing

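No paired analysis was possible because the tables hold 1 pooled value per group, and for the same reason no library could be left out. A tolerance set during the analysis, not beforehand, decided which values moved: a shift above the median absolute log2 ratio of all compared genes (0.11, 0.08 and 0.13 at 2 h, 24 h and 7 d), or above 1.5-fold for counts. Shares of all genes past the threshold in either direction under the same setting are in parentheses. At 2 h the 3 genes past 1.2-fold (17.6%) became 1 with a pseudocount of 1 (12.1%) and 1 of 7 at a mean FPKM of at least 5 (10.7%). The count was 1 with the length trend taken out (14%) and 0 after centring on the median of all genes (17.3%). It was 5 at 1.1-fold (40.6%) and 0 at 1.5-fold (4.05%). At 24 h the count of 0 (11.4%) became 4 at 1.1-fold (31.1%). At 7 d the count of 1 (19.9%) became 0 with the length trend taken out (11.7%), 7 at 1.1-fold (46.3%) and 0 at 1.5-fold (3.37%). Rescaling to the same total gave counts of 10, 10 and 6 (98.5%, 99.3% and 24.9% of all compared genes) and medians of -1.09, -3.24 and 0.27. All 10 genes were then below 0 at 2 h, among them those past 1.2-fold as deposited, Kdr (-0.90), Cdh5 (-0.935) and Ly6c1 (-1.01). Further totals were chosen after the values had been seen: a total over loci of at least 300 bases gave counts of 10, 10 and 10 (98.7%, 99.3% and 84.5%) and medians of -1.23, -3.44 and 0.61, again with all 10 below 0 at 2 h (Kdr -1.04, Cdh5 -1.07 and Ly6c1 -1.15), while a total over protein-coding genes gave 10, 10 and 10 (83.1%, 98.2% and 91.4%) and medians of 0.53, -0.82 and 0.70. The direction at 2 h therefore depends on which loci make up the total. Relative to the median of all compared genes, the median of the 10 genes was above 0 at 2 h and 7 d and below 0 at 24 h under every alternative run. For the rescalings and the centring this had to be so apart from the pseudocount, because they shift all genes alike. Of 72 counts and medians under the alternatives 44 did not move, and of 321 ratios of single genes 230 did not; 35 of the 321 changed sign, 30 under a rescaling and 5 with the length trend taken out. The filter and locus settings left every ratio of a single gene as it was. They add to the 230 without putting the ratios to a test, so the 230 is no measure of robustness.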

Other observations

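Genes of vessel segments and of the vessel wall gave further values. Of 5 compared smooth muscle genes all 5 had a higher FPKM in cocaine at each time on the deposited scale. Their medians were 0.24, 0.10 and 0.28 at 2 h, 24 h and 7 d. Of all compared genes 56%, 52.7% and 47.5% were higher in cocaine at these times. At 7 d 4 of the 5 were at least 1.2-fold higher, against 8.24% of all compared genes. Acta2, the actin of smooth muscle, had 9.59 FPKM in saline against 10.7 in cocaine at 2 h, 9.84 against 10.6 at 24 h, and 6.71 against 9.38 at 7 d, where saline was the lowest of the 6 groups. The 5 venous genes had medians of 0.06, -0.11 and 0.35. At 2 h 3 of the 5 were higher in cocaine, near the 56% of all compared genes. Nr2f2, which sets venous identity, had 2.2 against 3.07 FPKM at 2 h and 1.95 against 2.56 at 7 d. Flrt2 of the same list went the other way at 2 h, with 13.2 against 8.14 FPKM (1.62-fold lower in cocaine). The 7 arterial genes had medians of 0.01, 0.05 and 0.15. Gkn3, a marker of brain arteries, was 1.54-fold higher in cocaine at 2 h (5.13 and 7.94 FPKM) and lower at 24 h (5.93 and 4.76) and 7 d (6.20 and 4.69). Other arterial genes went the other way: Notch4 was 1.54-fold higher at 24 h (1.97 and 3.09), and Sema3g 1.44-fold higher at 7 d (1.04 and 1.53). At 7 d 3 of the 7 were at least 1.2-fold higher and 2 lower, against 8.24% and 11.7% of all compared genes.

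Both genes of this paragraph were singled out after their values were seen. Abcc4, an efflux pump of the barrier list, was at 5.32 and 5.23 FPKM in saline and cocaine at 24 h but at 1.90 against 2.55 at 2 h and 1.45 against 1.88 at 7 d; its locus in the 24 h table ends at 118707797 on chromosome 14 and at 118706219 in the other tables, so the gene models differ between the tables. Ece1, the endothelin-converting enzyme, had 13.2 FPKM in saline at 24 h against 7.29 to 10.2 in the other 5 groups, in tables normalized separately. Its log2 ratio at 24 h was -0.60.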
